A study of Mus musculus with 8 samples.

Results

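Eph receptors are cell-surface receptor tyrosine kinases. Here 10 of their genes are described in RNA brought down with tagged astrocyte ribosomes and in whole cortex: Epha3, Epha4, Epha5, Epha6, Epha7, Epha10, Ephb1, Ephb2, Ephb3 and Ephb6. They were taken by gene symbol from the 24058 symbols of the deposited tables, and all 10 passed the filter on low values. The tables hold 14 Eph receptor genes, and the other 4 (Epha1, Epha2, Epha8 and Ephb4) are given for comparison. Those 4 had mean input levels of 0.14 to 1.57 FPKM, below the 1.98 FPKM of Epha3, the lowest of the 10 in input. RNA came from the cortex of 4 male and female mice at postnatal day 80, all hemizygous for Aldh1l1-creERT2 and heterozygous for Ribotag. Aldh1l1-creERT2 is a Cre recombinase that tamoxifen switches on, driven by regulatory sequence of the astrocyte gene Aldh1l1. Ribotag is an allele of the ribosomal protein gene Rpl22 that gains a hemagglutinin (HA) tag where Cre has acted. The sources used here do not give tamoxifen dosing, strain or the sex of each animal. The animals are numbered 579, 580, 581 and 595. Each gave 1 input library, made from the cleared lysate, and 1 HA IP library, made from what the tag antibody brought down with the ribosomes. Both groups thus carry the same alleles, and astrocytes are also part of the input.

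Eph receptors bind ephrins on neighbouring cells, so that signalling needs cell contact and can run into both cells. EphA receptors mainly bind ephrin-A proteins, which are held to the membrane by a lipid anchor, and EphB receptors mainly bind ephrin-B proteins, which span it; EphA4 binds both kinds. The family is known for guiding axons during development and, in the adult cortex and hippocampus, for shaping dendritic spines and for contacts between neurons and astrocytes. EphA10 and EphB6 are unusual in lacking kinase activity.

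Of the 10 receptors, 2 were higher in HA IP and 8 were lower (limma on log2(FPKM + 0.1), two-sided, Benjamini-Hochberg adjusted p under 0.05). FPKM divides the fragments of a gene by its length and by the library total. Over all 15605 genes tested, 83.2% passed in either direction, 42.1% as higher and 41.1% as lower, so that passing the test is common in this comparison. With recovered fragments in place of FPKM the counts were also 2 and 8, against 83.0%, 42.0% and 41.0% of all genes. All 6 EphA genes fell, while the 4 EphB genes divided into Ephb1 and Ephb3, which rose, and Ephb2 and Ephb6, which fell. The log2 fold changes ran from -4.35 for Epha6 to 3.0 for Ephb1, with a median of -2.07 against 0.01 over all genes tested. These values are after scaling by trimmed mean of M-values (TMM), whose factors differ by 0.84 between the groups on the log2 scale. Relative to the FPKM as deposited this raised the value of Epha4 from -2.94 to -2.11, and the shift was smaller for genes near the pseudocount (Epha3 from -3.29 to -2.67). Without it the counts were again 2 and 8, the median was -2.84 against -0.75 over all genes, and 84.9% of all genes passed, 61.6% as lower and 23.3% as higher. For all 10 receptors the FPKM of the 4 HA IP libraries did not overlap those of the 4 input libraries, which held for 80.9% of all genes tested (22.0% higher and 59.0% lower in HA IP). In HA IP, more RNA per astrocyte, more ribosomes on each RNA and RNA carried over from other cells cannot be told apart. In input, more cells of a type and more RNA per cell cannot be told apart.

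The libraries held 33834388 to 53625125 fragments, recovered from steps in the deposited values. Spearman correlations over genes were 0.982 to 0.993 within HA IP, 0.990 to 0.996 within input and 0.780 to 0.813 between them. Aldh1l1 stood at 20.7 to 23.0 FPKM in input and at 370 to 433 FPKM in HA IP. All 10 astrocyte markers were higher in HA IP (log2 fold changes 2.97 to 5.11) and all 10 neuron markers were lower (-4.41 to -2.35). Neuron markers summed to 2313 to 2534 FPKM per input library and 88.6 to 114 FPKM per HA IP library, and none was at 0 in any library of HA IP. Rpl22, the tagged gene, had a log2 fold change of 0.69 with TMM scaling and -0.14 without. The microglia markers were all lower (7 of 7), as were 7 of 8 oligodendrocyte and 5 of 6 endothelial markers. Oligodendrocyte precursor markers divided into 3 lower and 3 higher (Olig1, Olig2 and Tmem100), and mural cell markers into 3 lower, 2 higher (Pdgfrb and Notch3) and 1 that did not pass; the oligodendrocyte marker Cnp was higher at 2.24.

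Ephb1 (chr9:101922128-102354693) had the largest rise of the 10; gene positions here are those of RefSeq on GRCm38.p6, whole gene spans. It encodes a receptor for ephrin-B proteins with a part in axon guidance and spine formation. In HA IP it stood at 22.6, 18.6, 13.5 and 21.5 FPKM in animals 579, 580, 581 and 595, and in input at 4.42, 4.18, 3.62 and 4.12 FPKM. All HA IP libraries lay above all input libraries, and animal 581 was the lowest in both groups. The mean was 4.09 ± 0.339 FPKM in input and 19.1 ± 4.06 FPKM in HA IP (SD, n = 4 each), 4.66-fold higher on the deposited scale. Fold values of mean FPKM are on that scale throughout, and log2 fold changes are after TMM scaling. The log2 fold change was 3.0 (SE 0.16; limma, adjusted p = 4.4e-08), and 4.18% of all genes tested had a larger one. Ephb1 had 29281 fragments over the HA IP libraries, the most of the 10 receptors.

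Ephb3 (chr16:21204620-21223309) encodes another ephrin-B receptor and also rose. Its levels in HA IP were 22.4, 18.6, 28.3 and 16.4 FPKM in animals 579, 580, 581 and 595, and in input 7.32, 7.98, 8.16 and 6.53 FPKM. The groups did not overlap, and animal 581 was the highest and animal 595 the lowest in both. The mean was 7.5 ± 0.741 FPKM in input and 21.5 ± 5.20 FPKM in HA IP (SD, n = 4 each), 2.86-fold higher on the deposited scale. The log2 fold change was 2.32 (SE 0.15; limma, adjusted p = 2.6e-07), and 7.54% of genes tested had a larger one.

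The 2 receptors that rose differed in which animal was high. In HA IP of animal 581, Ephb1 was at its lowest and Ephb3 at its highest, and the log2 ratio of Ephb1 to Ephb3 was -1.07 there against 0.01, 0.00 and 0.39 in animals 579, 580 and 595. In input the same ratio was also lowest in animal 581, at -1.17, and -0.73, -0.93 and -0.66 in the others. On average it was 0.71 higher in HA IP than in input, and it was higher in HA IP in each animal. The HA IP library of animal 581 also stood above the other HA IP libraries in Gfap (1080 FPKM against 310 to 449), Olig2 (68.6 against 19.7 to 27.2) and Ddr1 (19.8 against 9.22 to 10.9), which were picked after their values were seen. Their part in the difference between animals was not tested.

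**Figure D1:**
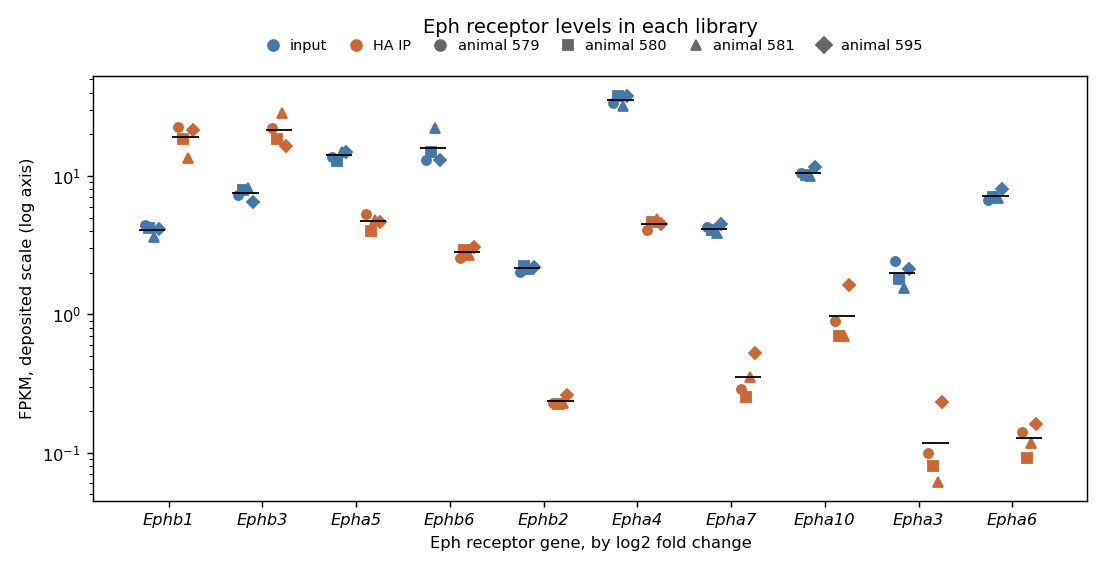
FPKM of the 10 Eph receptor genes on a log axis, as deposited, in 4 input libraries (blue) and 4 HA IP libraries (orange); marker shapes give the animal, black lines the group means, and genes run from the largest rise to the largest fall. Ephb1 and Ephb3 lie higher in HA IP and the other 8 lie lower, with no overlap between groups for any receptor; 80.9% of all genes tested also have groups that do not overlap.

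Start-site sequence is shown for Ephb1, which rose, and Epha3, which fell, because these are the members whose 250 bases before the RefSeq start site lie outside every annotated RefSeq gene. The windows are chr9:102354694-102354943 for Ephb1 and chr16:63864176-63864425 for Epha3, both on the minus strand of GRCm38.p6, written 5′ to 3′ towards the start site.
Ephb1: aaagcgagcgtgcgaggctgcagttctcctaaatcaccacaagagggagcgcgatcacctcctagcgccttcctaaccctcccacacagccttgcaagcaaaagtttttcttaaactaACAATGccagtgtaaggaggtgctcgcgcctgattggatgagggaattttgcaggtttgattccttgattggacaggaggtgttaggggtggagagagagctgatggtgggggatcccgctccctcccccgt
Epha3: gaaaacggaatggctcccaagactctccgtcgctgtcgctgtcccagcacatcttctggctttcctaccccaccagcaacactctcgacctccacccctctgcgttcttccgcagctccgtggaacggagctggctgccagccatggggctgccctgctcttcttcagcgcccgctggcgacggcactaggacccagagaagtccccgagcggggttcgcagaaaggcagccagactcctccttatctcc
Capitals mark a match to ACAANG, a core of SOX factor motifs, which Ephb1 held once and Epha3 did not; it occurs in 36.3% of 32851 RefSeq promoter windows of 250 bases, on either strand. Neither window held the GC box GGGCGG (32.7% of windows), the NFI half-site TTGGCA (12.3%), the E-box CAGCTG (13.0%) or TATAAA (12.4%). None of these motifs overlaps the ACAANG match. Ephb1 had 10 CpG dinucleotides and 54.0% G or C in its window, and Epha3 had 16 and 62.8%, against medians of 6 and 52.4% over all windows. A match of letters is a description and not a binding site.

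Epha6 (chr16:59641433-60610911), an EphA receptor, had the largest fall of the 10. Input held 6.69, 7.05, 6.97 and 8.07 FPKM in animals 579, 580, 581 and 595, and HA IP held 0.141, 0.0914, 0.117 and 0.162 FPKM. The groups did not overlap, and animal 595 was the highest in both. The mean fell from 7.20 ± 0.602 to 0.128 ± 0.0305 FPKM (SD, n = 4 each), 56.3-fold lower on the deposited scale. The log2 fold change was -4.35 (SE 0.14; limma, adjusted p = 1.94e-09), and 0.436% of genes tested had a lower one. HA IP held 89 fragments of Epha6 in all against 4943 in input, and with fragments in place of FPKM the log2 fold change was -4.97, since the pseudocount of 0.1 FPKM shrinks low values. The lowest of the 10 neuron markers was Gad2, a gene of inhibitory neurons, at -4.41.

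Epha3, Epha7 and Epha10 also fell, with log2 fold changes that depend on the pseudocount: with fragments in place of FPKM they were -3.35, -2.76 and -2.68. Epha3 (chr16:63543532-63864175), a receptor for ephrin-A proteins, stood at 2.43, 1.79, 1.56 and 2.12 FPKM in input and at 0.0995, 0.0797, 0.0618 and 0.231 FPKM in HA IP of animals 579, 580, 581 and 595. Animal 595 was the highest in HA IP, and the groups did not overlap. Its log2 fold change was -2.67 (SE 0.25; limma, adjusted p = 3.71e-06). It rested on 74 fragments in HA IP, of which animal 581 gave 11.

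Epha7 (chr4:28813066-28967503), which helps to set cortical maps and has a form without the kinase, stood at 4.25, 4.04, 3.85 and 4.51 FPKM in input and at 0.288, 0.254, 0.352 and 0.522 FPKM in HA IP. Again animal 595 was the highest in HA IP, with no overlap between groups. Epha7 had a log2 fold change of -2.52 (SE 0.18; limma, adjusted p = 3.92e-07). Epha10 (chr4:124881530-124917801), one of the kinase-inactive receptors, stood at 10.5, 10.1, 9.93 and 11.7 FPKM in input and at 0.893, 0.697, 0.692 and 1.63 FPKM in HA IP. Here too the library of animal 595 was highest in HA IP and the groups did not overlap. Its log2 fold change was -2.58 (SE 0.23; limma, adjusted p = 2.17e-06).

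For these 3 genes the HA IP library of animal 595 gave the smallest fall, with log2 ratios of -2.09 for Epha3, -2.17 for Epha7 and -2.01 for Epha10. Ephb6 also fell least in animal 595 (-1.28), but Epha4 (-2.28) and Epha5 (-0.90) fell most there, and Epha6 and Ephb2 lay between. The library was singled out after its values were seen. That library also had the highest sum of neuron markers in HA IP, 114 FPKM against 88.6 to 109 in the others. Snap25, Camk2a, Tubb3, Stmn2 and Nefl were highest there, but Slc17a7, Gad1, Gad2, Rbfox3 and Syt1 were not (Slc17a7 23.4 FPKM against 32.2 in animal 581). The oligodendrocyte marker Cldn11 was highest there too (3.95 against 1.43 to 1.8 FPKM), while Mbp was lowest (1.85 against 2.15 to 2.39 FPKM). The library also had the highest share of the ribosomal RNA precursor Rn45s, 2.55% of fragments against 0.947% to 1.3%. The part of these values in the differences between animals was not tested. Without this library the log2 fold changes of Epha3, Epha7 and Epha10 were -2.93, -2.70 and -2.84, and all 3 passed.

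Epha4 (chr1:77367182-77515107) was the receptor with the most fragments in every input library. It encodes a receptor that binds ephrins of both classes and is studied for its place on dendritic spines. Input held 33.9, 37.9, 32.0 and 38.0 FPKM in animals 579, 580, 581 and 595, and HA IP held 4.08, 4.63, 4.90 and 4.51 FPKM. The groups did not overlap, and the 4 animals were close together in each. The mean fell from 35.5 ± 3.01 to 4.53 ± 0.341 FPKM (SD, n = 4 each), 7.83-fold lower on the deposited scale. After TMM scaling the log2 fold change was -2.11 (SE 0.09; limma, adjusted p = 8.54e-09).

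Epha5 (chr5:84054761-84417818), a receptor for ephrin-A proteins known from axon mapping, had the smallest fall. Input held 13.8, 12.8, 14.8 and 15 FPKM and HA IP held 5.31, 3.98, 4.83 and 4.66 FPKM in animals 579, 580, 581 and 595. Every HA IP library lay below every input library. The mean went from 14.1 ± 0.996 to 4.70 ± 0.552 FPKM (SD, n = 4 each), 3.0-fold lower on the deposited scale, and the TMM-scaled log2 fold change was -0.74 (SE 0.10; limma, adjusted p = 5.74e-05). On the deposited scale it was -1.57. The log2 ratio of Epha5 to Epha4 within a library, which no scaling between libraries can change, was -1.33 ± 0.185 in input and 0.05 ± 0.249 in HA IP (SD, n = 4 each). It ran from -1.56 to -1.11 in input and from -0.22 to 0.38 in HA IP, without overlap.

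Ephb2 and Ephb6 were the EphB genes that fell. Ephb2 (chr4:136647536-136836326), whose protein binds NMDA receptors at excitatory synapses, stood at 2.01, 2.24, 2.11 and 2.21 FPKM in input and at 0.229, 0.224, 0.230 and 0.260 FPKM in HA IP of animals 579, 580, 581 and 595. The values in each group were close together and the groups lay far apart. Ephb2 had a log2 fold change of -2.03 (SE 0.12, limma, adjusted p = 8.25e-08). Its HA IP levels were near the pseudocount, and the value was -2.31 at 0.01 FPKM, -0.98 at 1 FPKM and -2.34 with fragments. With 0.01 FPKM and with fragments it lay below Epha4 (-2.12 in both), the reverse of the main fit. Ephb6 (chr6:41603834-41620509), the kinase-inactive EphB receptor, stood at 13.1, 15, 22.4 and 13.0 FPKM in input and at 2.57, 2.91, 2.68 and 3.07 FPKM in HA IP. The input library of animal 581 stood above the other inputs, and no HA IP library reached the inputs. Ephb6 had a log2 fold change of -1.60 (SE 0.16; limma, adjusted p = 6.93e-06), with -2.21 in animal 581 and -1.45, -1.45 and -1.28 in animals 579, 580 and 595. Without that input library it was -1.42 and passed.

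The log2 ratio of Ephb1 to Ephb2 within a library was 6.31 ± 0.315 in HA IP and 0.93 ± 0.153 in input (SD, n = 4 each), a difference of 5.38 between groups. For Ephb3 to Ephb2 it was 6.48 ± 0.404 in HA IP and 1.80 ± 0.167 in input. Gene length enters each ratio in the same way in every library and drops out of the difference.

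Ordered by the log2 ratio of HA IP to input in each animal, some receptors were set apart by gaps and others overlapped. The lowest animal for Ephb1 (2.68) lay above the highest for Ephb3 (2.60), Ephb3 (lowest 2.09) lay above Epha5 (highest -0.49), and Epha5 (lowest -0.90) lay above Ephb6 (highest -1.28). From Ephb6 through Ephb2, Epha4, Epha7 and Epha10 to Epha3, each receptor overlapped its next neighbour. Epha6 (highest -4.11) again lay below Epha3 (lowest -3.01). The gap between Ephb1 and Ephb3 closed with a pseudocount of 1 FPKM, where the lowest ratio of Ephb1 was 2.35 and the highest of Ephb3 was 2.44. Set against the neuron markers (-4.41 to -2.35), Epha6, Epha3, Epha10 and Epha7 lay within their range, and Epha4, Ephb2, Ephb6 and Epha5 lay above it. With fragments in place of FPKM the neuron markers ran from -4.54 to -2.39, Epha6 at -4.97 lay below them, and Ephb2 at -2.34 still lay above.

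**Figure D2:**
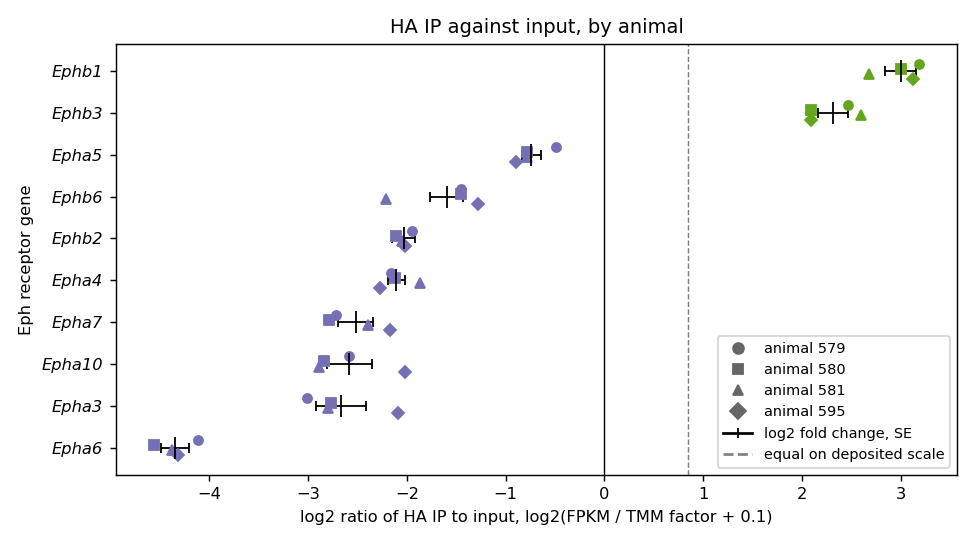
Log2 ratio of HA IP to input for each Eph receptor, after TMM scaling; points are the 4 animals by shape, black bars the limma log2 fold change with its SE, and the dashed line at 0.84 marks about equal FPKM on the deposited scale for genes well above the pseudocount. Ephb1 and Ephb3 lie right of both lines in all 4 animals, the other 8 lie left of 0 in all 4, and Epha6 stands apart at the low end.

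The set of receptors that the fragments came from changed between groups, and this does not depend on scaling. Ephb1 and Ephb3 together took 9.57 ± 0.705% of the fragments of the 10 receptors in input and 72.1 ± 2.2% in HA IP (SD, n = 4 each). The shares ran from 8.85% to 10.3% in input, and were 75.0%, 72.6%, 70.3% and 70.6% in HA IP of animals 579, 580, 581 and 595. The sum was close between animals although its parts were not: in HA IP of animal 581 Ephb1 took 36.2% and Ephb3 34.1%, while Ephb3 took 18.0% to 23.2% in the other animals and Ephb1 up to 52.5%. Epha4, Epha5 and Ephb6 together took 63.1 ± 2.07% in input and 23.7 ± 1.76% in HA IP. Epha3, Epha6 and Ephb2 had the smallest shares in HA IP, at 0.127%, 0.146% and 0.626%. Shares of fragments grow with gene length, and the lengths contained in the FPKM ran from 3961 bases for Epha3 to 16716 for Epha7. The sources used here do not say whether these are lengths of single transcripts. The receptors were therefore not ranked by level within a group, apart from the input FPKM in the opening, which carry this limit. Ranks by fragments or by share, as for Epha4 in input and Ephb1 in HA IP, are not ranks of level. In HA IP Ephb1 had the most fragments, yet its mean FPKM (19.1) was below that of Ephb3 (21.5). The 10 genes together made up 0.0686% to 0.0735% of an input library and 0.0341% to 0.0400% of an HA IP library.

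**Figure D3:**
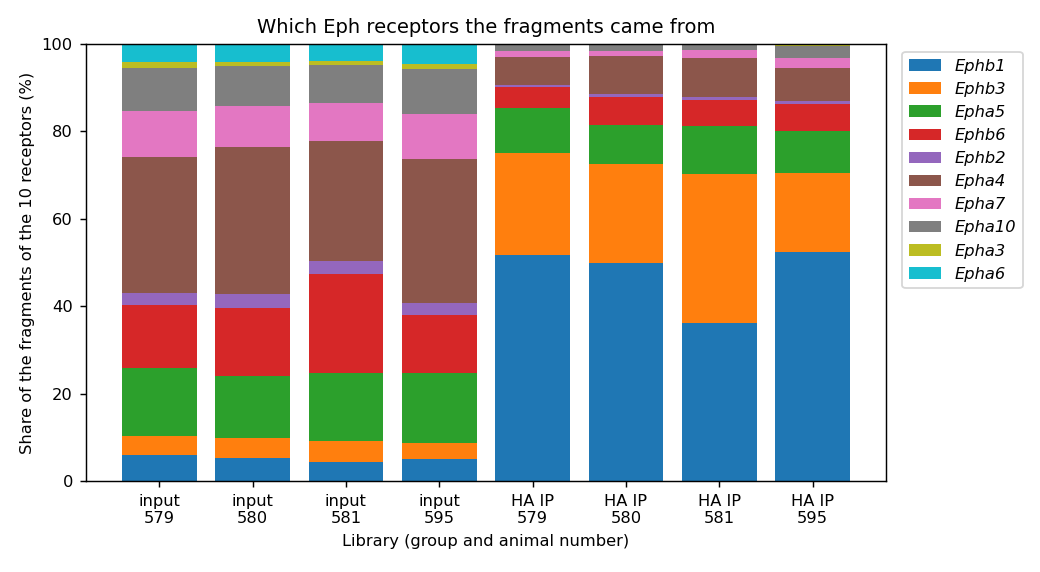
Stacked bars of the share of the fragments of the 10 Eph receptors that came from each gene, in percent, for 4 input and 4 HA IP libraries. Ephb1 and Ephb3, at the bottom of each bar, take 8.85% to 10.3% in input and 70.3% to 75.0% in HA IP, and Epha4 has the largest share in every input library.

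Of the other 4 Eph receptor genes, Ephb4 rose, Epha2 and Epha8 fell and Epha1 did not pass. Ephb4, the ephrin-B2 receptor best known from veins, stood at 1.77, 1.54, 1.65 and 1.52 FPKM in HA IP and at 0.652, 0.587, 0.719 and 0.519 FPKM in input of animals 579, 580, 581 and 595. All HA IP values were higher than all input values, and the log2 fold change was 2.02 (SE 0.13; limma, adjusted p = 2.01e-07). Of the endothelial markers 5 of 6 fell, and Kdr, at -0.50, did not pass; they summed to 13.5 to 21.0 FPKM per input library and 2.01 to 2.69 FPKM per HA IP library; their part was not tested. Epha8 fell from 1.57 ± 0.360 to 0.0820 ± 0.00521 FPKM (SD, n = 4 each), a log2 fold change of -2.58 (SE 0.16), or -3.35 with fragments in place of FPKM, of which HA IP held 19, 17, 16 and 13. Epha2 was near the limit of detection in HA IP, with 0, 3, 12 and 2 fragments against 32, 27, 48 and 41 in input, and had -1.08 (SE 0.21; limma, adjusted p = 8.06e-04). That value is set largely by the pseudocount, with -2.54 at 0.01 FPKM, -0.19 at 1 FPKM and -2.98 with fragments. Its 0 in animal 579 allows up to 3 fragments, or 0.0168 FPKM, counting error only. Epha1 had 4, 5, 18 and 6 fragments in HA IP and 14, 21, 18 and 19 in input, and a log2 fold change of -0.23 (limma, adjusted p = 0.322). It passed as lower on the deposited scale (-0.62) and without the HA IP library of animal 581 (-0.45, adjusted p = 0.0281).

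Among the ephrin ligands, 5 of 8 genes fell and 2 rose, against 41.1% lower and 42.1% higher over all genes tested. The median was -1.43, and Efnb1 did not pass. Efna4 rose from 0.223 ± 0.0989 to 0.735 ± 0.0720 FPKM (SD, n = 4 each), a log2 fold change of 2.06 (SE 0.19). Input held only 21, 9, 11 and 15 fragments of Efna4 in animals 579, 580, 581 and 595. Its value depends on the pseudocount, with 2.57 at 0.01 FPKM, 0.77 at 1 FPKM and 2.61 with fragments. Efna2 rose by 1.15 (SE 0.12), or 0.33 on the deposited scale, where it passed too. The largest falls were those of Efna3, from 39.2 ± 15.3 to 1.97 ± 0.843 FPKM (-3.43, SE 0.29), and of Efnb2 (-2.27, SE 0.14), an ephrin-B that binds EphB receptors. Efna5, Efnb3 and Efna1 changed by -1.83, -1.55 and -1.31. Efnb1 had 0.17 (SE 0.19; limma, adjusted p = 0.424), and it was lower on the deposited scale (-0.66) and at -0.018 without the HA IP library of animal 581. The input library of animal 581 was the highest input for the receptor genes Ephb3, Ephb4, Ephb6, Epha2 and Epha8. It was the lowest input for Epha3, Epha4, Epha7, Epha10 and Ephb1. Among the ephrin genes it was the highest input for Efna1, Efna3, Efna5 and Efnb1, but not for Efna2, Efna4, Efnb2 and Efnb3. This library was singled out after its values were seen, and the pattern was not tested. Efna3 stood at 62.1 FPKM there against 30.5 to 32.2 in the other inputs. Without that library the log2 fold change of Efna3 was -3.19 and passed.

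Genes that carry the signal inside the cell moved in both directions, as genes did in general: 41.1% of all genes tested fell and 42.1% rose. Of 17 kinase and adaptor genes, 6 fell, 7 rose and 4 did not pass (median -0.01). Without TMM scaling 10 fell and 6 rose, against 61.6% lower and 23.3% higher over all genes. Inppl1, a lipid phosphatase that binds the SAM domain of EphA2, rose by 3.01 (SE 0.10), the Eph adaptor gene Anks1 by 1.83 (SE 0.13) and the Src-family kinase gene Yes1 by 1.81 (SE 0.16). Anks1b, a paralog of Anks1, fell with a log2 fold change of -3.80 (SE 0.13), followed by the spine protein gene Sipa1l1 at -2.84 (SE 0.14) and Grb10 at -2.55 (SE 0.15).

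Of 8 genes for PDZ proteins and other partners of Eph and ephrin-B tails, 3 fell and 4 rose (median -0.02), and without TMM scaling 5 fell and 2 rose. Over all genes tested 41.1% fell and 42.1% rose, and without TMM scaling 61.6% and 23.3%. Ptpn13 rose by 2.63 (SE 0.11) and Rgs3, which couples ephrin-B to G proteins, by 1.54 (SE 0.16). Sdcbp, the syntenin gene, rose by 0.72 with TMM scaling and was at -0.12 without it. Grip2 fell with -2.68 (SE 0.22), Git1 with -1.13 (SE 0.09) and the afadin gene Mllt4 with -0.49 (SE 0.07).

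Of 9 protease and phosphatase genes, 3 fell and 6 rose (median 0.64), but without TMM scaling 5 fell, 1 rose and 3 did not pass. The shares over all genes were 41.1% lower and 42.1% higher with TMM scaling, and 61.6% and 23.3% without. The gene that rose on both scales was Psen2, a gamma-secretase subunit gene, at 1.24 (SE 0.11) with TMM scaling and 0.42 without. Ptprf, a receptor-type phosphatase gene, rose by 1.26 with scaling and did not pass without it (0.42). Ptpro, a phosphatase that acts on Eph receptors, fell with -3.05 (SE 0.18), the ubiquitin ligase gene Cbl with -2.39 (SE 0.12) and Adam10, a protease that cuts ephrin complexes, with -0.34 (SE 0.10).

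Other receptor tyrosine kinases give a frame for the size of these differences. Of 40 tested, 21 fell, 15 rose and 4 missed the threshold (median -0.43), and without TMM scaling 24 fell and 13 rose. Among all genes tested 41.1% fell and 42.1% rose, and without TMM scaling 61.6% and 23.3%. With the animal as a block Mst1r and Musk were no longer lower (adjusted p = 0.0748 and 0.0805, limma) and Insrr passed as higher (0.0163). The largest rises were those of Fgfr3 (4.10, SE 0.10), Axl (3.71, SE 0.07) and Erbb2 (3.38, SE 0.18), each above Ephb1. With a pseudocount of 1 FPKM Erbb2 stood at 2.07, below Ephb1 at 2.69, while Fgfr3 (3.86) and Axl (3.33) stayed above it. The lowest values were those of Erbb4 (-4.92, SE 0.16), Csf1r (-3.45, SE 0.13) and Pdgfra (-2.68, SE 0.24), of which Erbb4 lay below Epha6. After Erbb4 this order depends on the pseudocount. With fragments Erbb4 stood at -6.04, Erbb3 at -4.66, Ret at -4.19, Csf1r at -3.54, Flt4 at -3.12 and Pdgfra at -2.98.

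**Figure D4:**
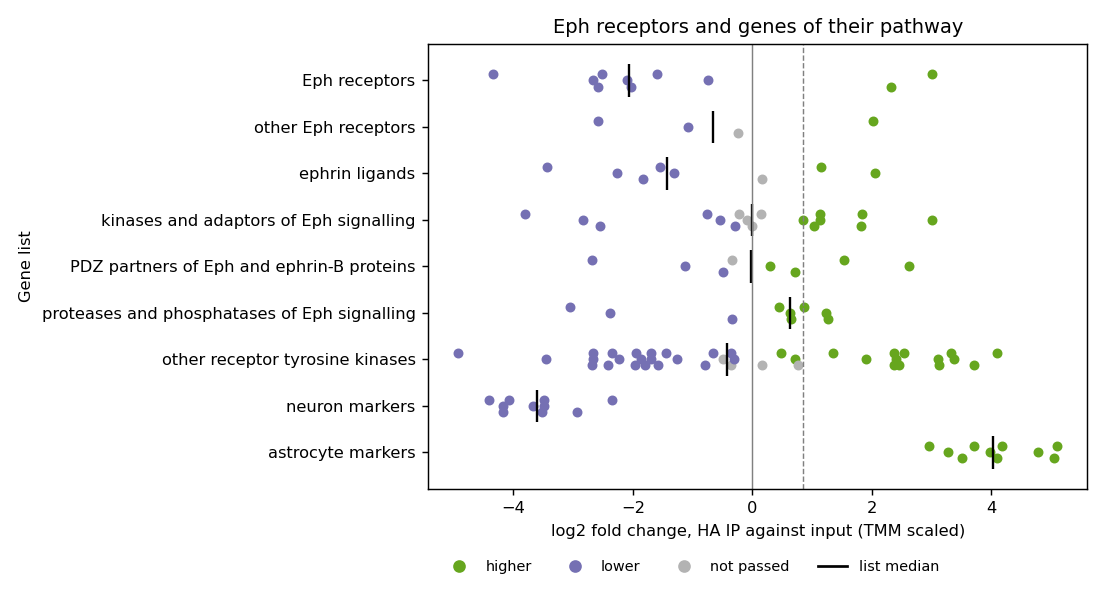
Log2 fold change of HA IP against input after TMM scaling for each gene tested (points) of the Eph receptors, their pathway lists and marker lists; green is higher, purple lower and grey not passed (limma, adjusted p under 0.05), black ticks are list medians, and the dashed line at 0.84 marks about equal FPKM on the deposited scale for genes well above the pseudocount. The Eph receptors have their median at -2.07, between the neuron markers at -3.60 and the astrocyte markers at 4.03, with Ephb1 and Ephb3 on the right.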

How the data were processed

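The deposited values were read as FPKM made by the authors (fragments per length and library total), since neither labels nor headers name a unit. Per the submitters' processing notes, bcl2fastq 2.17, STAR, HTSeq and mm10 were used; the sources used here give no other version, annotation or strand setting. A length for each gene and a total for each library were fitted, and with them each of the 142235 nonzero values lay within 0.001 of a whole number of fragments. Genes with at least 0.246 CPM in 4 libraries and 15 fragments in all were tested (15605). FPKM were divided by TMM factors (trims 0.3 and 0.05) and log2(FPKM + 0.1) was tested with limma 3.58.1 in R 4.3.3. The fit had an intensity trend and no block, and was run after a check on simulated data. In that check only a small part of the genes was changed, whereas 83.2% passed here. It therefore cannot show how the scaling and fit behave where most genes differ. The p-values rest on the spread between animals within each group, moderated over genes, and not on the paired differences within animals. Libraries of the same animal deviated together (correlations 0.219 to 0.398, at most 0.114 otherwise), the pairing coming from the animal numbers in the labels. The receptors and lists were chosen with earlier results of these data known. Named were all Eph receptors and ephrins, Aldh1l1, Rpl22, up to 3 rises and 3 falls per pathway list with 1 direction in all animals, and the 3 genes nearest in profile to the extreme members. Some of these results are not reported here. Promoter sequences are RefSeq's (GRCm38.p6), matched by symbol for 10 of 10 members.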

Additional observations from a re-analysis of the deposited data

How the results depend on the processing

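Each of the 10 Eph receptors kept its direction and passed under all 16 alternatives, 160 fits in all: no TMM, median-of-ratios factors, pseudocounts of 0.01 and 1 FPKM, no filter, a filter of 1 CPM, the replicate block, each of 8 libraries left out, and, added after seeing the data, log2 CPM of recovered fragments. Counts were 2 higher and 8 lower in each. With the replicate block of animal numbers, 6727 genes were higher and 6579 lower against 6573 and 6413; it changed no call of an Eph receptor, ephrin or signalling gene, but Mst1r and Musk lost and Insrr and Acta2 gained a call (adjusted p = 0.0748, 0.0805, 0.0163 and 0.0396). Without TMM scaling 3643 of all genes were higher and 9613 lower; with libraries left out, 6347 to 6624 were higher. In the order by log2 ratio, 6 receptors kept their rank with a pseudocount of 0.01 and 5 with 1 FPKM. Pseudocounts of 0.01 and 1 gave -4.92 and -2.44 for Epha6, and -3.29 and -1.09 for Epha3. Of the genes named by rule, Efnb1 (-0.66), Rpl22 (-0.14) and Sdcbp (-0.12) reversed on the deposited scale. Of the other list genes, Pick1, Ptpn1, Igf1r and Ncstn went from higher to lower (-0.53, -0.39, -0.36 and -0.19), and Acp1, Insr, Crk and Ror2 changed sign too (-0.20, -0.11, -0.69 and -0.40). Efnb1 also reversed without HA IP replicate 581 (-0.018; 0.28 without HA IP replicate 595). Depth limits Epha1, Epha2, Epha3, Epha6 and Epha8 in HA IP, and Efna4 in input.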

Other observations

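Genes with profiles most like those of the extreme receptors were found by the distance between centred log2 values over the 8 libraries, which share the contrast of HA IP with input. Nearest to Ephb1 were Kcnn2, a calcium-activated potassium channel gene (distance 0.276, log2 fold change 3.06), Sft2d2 (0.375, 2.91) and Eps8, an actin regulator gene (0.379, 2.83), against a median distance of 4.32 over all genes. Nearest to Epha6 were Dpp10, a potassium channel partner gene (0.287, -4.37), Plcxd2 (0.328, -4.23) and Rab9b (0.340, -4.22), against a median of 6.22. These are descriptions of 8 libraries with no test.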
